A study of Mus musculus with 22 samples.

Results

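A set of 10 classic immediate early genes were followed through 22 single mouse astrocytes, each of which had been picked after its calcium signal to ethanol (EtOH) was classified. The members were fixed by symbol as *Fos*, *Fosb*, *Jun*, *Junb*, *Jund*, *Egr1*, *Klf6*, *Nr4a1*, *Atf3* and *Ier2*, which are 10 of the 23453 gene symbols in the count table. The cells came from primary cultures of the cortex of newborn C57BL/6 pups, 1 pup per culture, with microglia and other cells depleted by shaking and cytosine arabinoside, and serum was withdrawn a day before imaging. The study asked how gene expression goes with the shape of the calcium response, and its groups were 6 S-type cells (slow rise and slow decay), 6 T-type cells (transient signal), 5 M-type cells (mixed waveform) and 5 nonresponsive (NR) cells. All 4 groups, NR included, had been loaded with the calcium dye Fluo-4 and exposed to EtOH, and ATP was applied at the end of imaging experiments to scale the signals. There was no cell without EtOH, so induction by EtOH cannot be read from these data. The study describes a brief exposure to EtOH and collection either within minutes or an hour after it, a span over which immediate early mRNAs are known to rise and fall. The labels give neither the time of a cell nor its pup or culture, so the times cannot be told apart within the types, each response type counts as 1 sample and no p-value is given between types. The value of a gene in a cell is its normalized count, which is the read count divided by the size factor of the cell (the median ratio of its counts to the average cell), and the level of a type is the mean over its cells.

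Immediate early genes are transcribed within minutes of a stimulus without new protein synthesis. Calcium entry or release acts on them through calmodulin kinases and CREB, which binds cAMP response elements, and growth factor or ERK signaling acts through serum response factor, which binds CArG boxes, and its partners the Elk proteins, which bind ETS motifs beside them. Fos proteins pair with Jun proteins to form the AP-1 factor, Egr1 and Klf6 are zinc finger factors, Nr4a1 is an orphan nuclear receptor, Atf3 is a stress-induced bZIP factor that can repress its targets, and Ier2 is a small nuclear protein. In cultured astrocytes these genes are also known to respond to serum, handling and injury.

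The window upstream of the transcription start is shown for 3 members whose mRNA behaved differently across the cells, since it is a place where CREB and serum response factor can bind. The sequences are from RefSeq (GRCm38.p6), which matched 8 of the 10 members, *Egr1* and *Ier2* not among them. Each sequence below is the 250 bases before the start, read 5′ to 3′ on the strand of the gene, with the core of the cAMP response element (TGACG, or CGTCA where it lies on the other strand) in capitals.
Fos, chr12:85473640-85473889, plus strand, with a read in every cell: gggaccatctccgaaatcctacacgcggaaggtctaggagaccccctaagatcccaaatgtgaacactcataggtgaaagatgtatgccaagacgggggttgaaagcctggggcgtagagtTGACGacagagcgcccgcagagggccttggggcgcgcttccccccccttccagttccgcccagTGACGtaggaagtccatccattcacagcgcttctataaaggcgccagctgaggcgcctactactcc
Nr4a1, chr15:101266596-101266845, plus strand, read in 16 of 22 cells: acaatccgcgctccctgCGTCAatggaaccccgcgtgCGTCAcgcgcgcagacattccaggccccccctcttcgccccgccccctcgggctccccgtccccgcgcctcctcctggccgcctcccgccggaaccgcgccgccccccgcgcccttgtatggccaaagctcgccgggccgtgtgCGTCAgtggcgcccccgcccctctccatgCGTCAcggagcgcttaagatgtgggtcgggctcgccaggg
Jun, chr4:95052223-95052472, minus strand, among the most abundant members: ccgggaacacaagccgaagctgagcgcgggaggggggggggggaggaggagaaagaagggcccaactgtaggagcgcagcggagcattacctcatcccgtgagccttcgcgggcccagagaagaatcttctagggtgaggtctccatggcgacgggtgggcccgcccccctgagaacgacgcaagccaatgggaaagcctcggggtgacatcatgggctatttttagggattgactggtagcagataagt
The core TGACG, searched on both strands, was in 5 of the 8 windows (*Atf3*, *Fos*, *Fosb*, *Junb* and *Nr4a1*) and in 17.8% of all 32851 windows in the table. In *Fos* it began at -129 and -66 from the start on the plus strand, and in *Nr4a1* it lay at -233, -213, -69 and -40 on the strand opposite to the gene. The window of *Jun*, like those of *Jund* and *Klf6*, did not contain these letters. The RefSeq window of *Jund* ended at 70697738, upstream of the GENCODE gene start at 70698949. It thus does not describe the bases next to that start. The window of *Nr4a1* lay inside its GENCODE gene, which spans 101254269 to 101274795. That of *Atf3*, 191183334 to 191183583, lay inside its GENCODE gene too, which spans 191170296 to 191218039. These windows thus do not describe the bases before the outermost GENCODE start. The full palindrome TGACGTCA and the CArG box were in 0 of the 8 windows, against 1.55% and 1.47% of all windows. Bases farther upstream were not searched, and *Egr1* and *Ier2* had no window. The absence of a match here thus does not mean that these genes lack such elements. The EGR site GCGGGGGCG, on either strand, was in those of *Fosb* and *Nr4a1*, against 2.57% of all windows. TATAAA on the plus strand was in the window of *Fos*, at -33, against 7.59% of all windows. A match is a description of letters and not a site shown to be bound.

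Libraries held 2937786 to 22131076 reads, and size factors ran from 0.183 to 2.31. All 12 astrocyte markers were read in each type and summed to between 5008 and 20759 counts per 1000000 reads (CPM) per cell. Of 10 microglia markers, 9 were read in NR and T-type cells, 8 in M-type cells and 3 in S-type cells. They summed to at most 0.308 CPM in S-type cells, 5.34 in T-type cells and 0.726 in M-type cells but to between 0.731 and 49.9 CPM in NR cells, with *P2ry12* at 0 in NR. Their part in the differences from NR was not tested. Other marker lists reached higher sums. The highest cell had 7450 CPM of fibroblast and mural markers (S-type cell 5) and 3329 of oligodendrocyte lineage markers (T-type cell 3). It had 259 for neuron markers (T-type cell 1) and 200 for endothelial markers (T-type cell 5). The part of these lists was not tested either. T-type cells 2 and 3 had the lowest size factors, 0.276 and 0.183, and T-type cell 2 had reads of 6319 genes, the fewest of all cells, in a library of 12564138 reads. Its normalized counts are therefore large beside its CPM.

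All 10 members passed the filter of a read in at least 5 cells. *Fos*, *Egr1* and *Klf6* were read in 22 of 22 cells, *Jun* and *Jund* in 21, *Junb* in 19, *Nr4a1* and *Ier2* in 16, *Atf3* in 14 and *Fosb* in 8. With every cell thinned to 2937786 reads, *Fos* was still read in 21 cells, *Jun* in 21, *Egr1* in 19, *Ier2* in 16, *Nr4a1* in 14 and *Atf3* in 11, whereas *Fosb* was read in 2. Per kilobase of exon, the mean level over all cells was highest for *Egr1* (1105 normalized counts per kb), then *Jun* (599), *Klf6* (542) and *Fos* (495). *Ier2* (146), *Nr4a1* (72.5) and *Atf3* (70.5) followed, with *Jund* (13.6), *Junb* (10.2) and *Fosb* (0.14) at the bottom. *Egr1* led by its mean and not by its middle cell: by the median cell the per-kb levels were 424 for *Jun*, 382 for *Klf6*, 272 for *Egr1* and 232 for *Fos*.

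**Figure D1:**
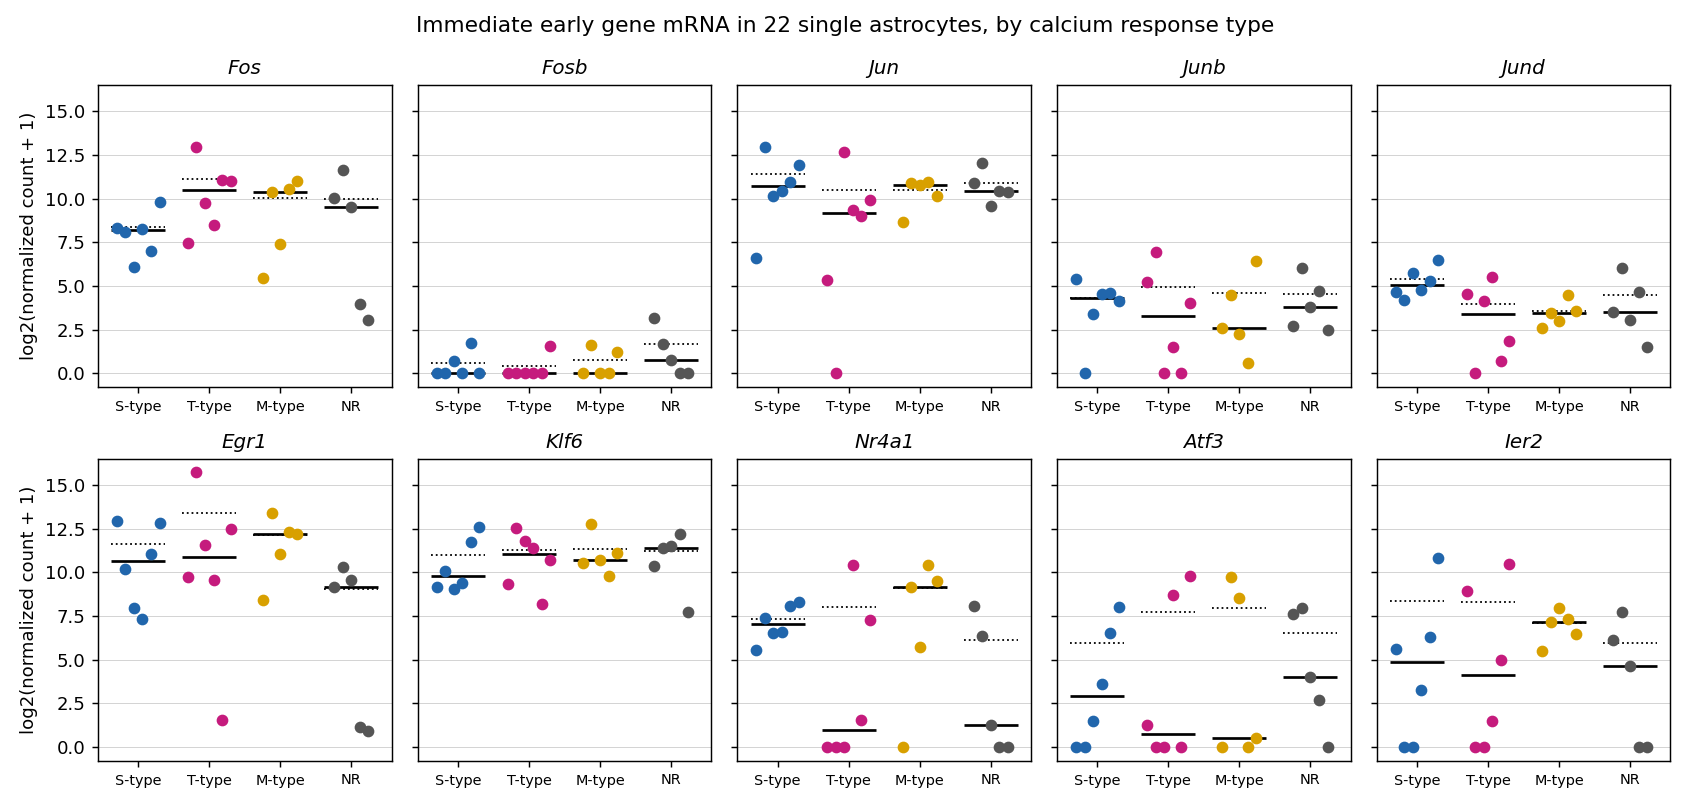
Normalized counts of each member in the 22 cells, plotted as log2(normalized count + 1) on the y axis, with 1 point per cell and response types on the x axis. Solid bars are medians and dotted bars are means over the cells of a type, plotted on the same scale. *Jun* and *Klf6* lie high in nearly all cells, while *Nr4a1* splits into cells near 0 and cells far above it. *Atf3* and *Ier2* run from 0 to high values, with cells in between.

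The spread between cells of a type was wider than that between the medians of the types. Summed over the 10 genes, S-type cells held 2114 to 20964 normalized counts with a median of 8584. T-type cells held 2261 to 68115 with a median of 9629, and M-type cells 2326 to 22455 with a median of 10935. The NR cells held 1542 to 12154 with a median of 5406. The groups overlapped over most of their range, and NR cell 5 was the lowest of all 22 cells while NR cell 2 was above the medians of the other types. In CPM the medians were 662 for S-type, 697 for T-type, 1083 for M-type and 484 for NR. T-type cell 2, the highest cell by normalized counts, was the third in CPM (1495), behind S-type cell 6 (1743) and M-type cell 2 (1685).

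**Figure D2:**
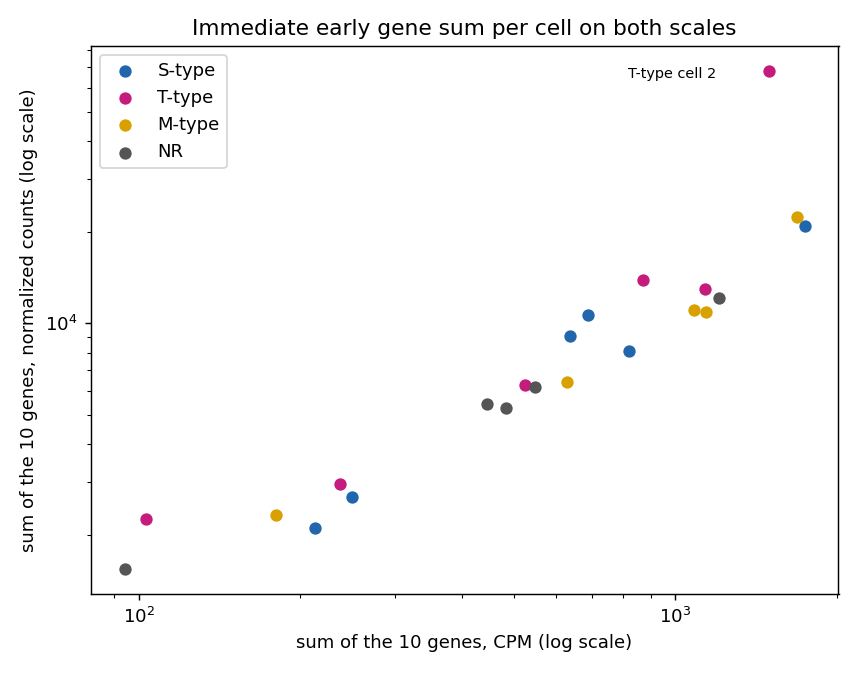
Sum of the 10 genes per cell in CPM on the x axis and in normalized counts on the y axis, both log scales, with 1 point per cell colored by response type. The cells lie near a diagonal, and T-type cell 2 stands above it at 1495 CPM and 68115 normalized counts.

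The make-up of that sum also varied from cell to cell. *Egr1* gave the largest share in S-type cell 1 (87.4%) and T-type cell 2 (79.4%). *Jun* gave the largest share in NR cell 5 (85.3%) and S-type cell 2 (74.5%), *Klf6* in NR cell 4 (76.0%) and *Fos* in T-type cell 5 (71.4%). The member with the largest share thus differed between cells. These cells are named for their high shares, and a share does not give the amounts of the other members.

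**Figure D3:**
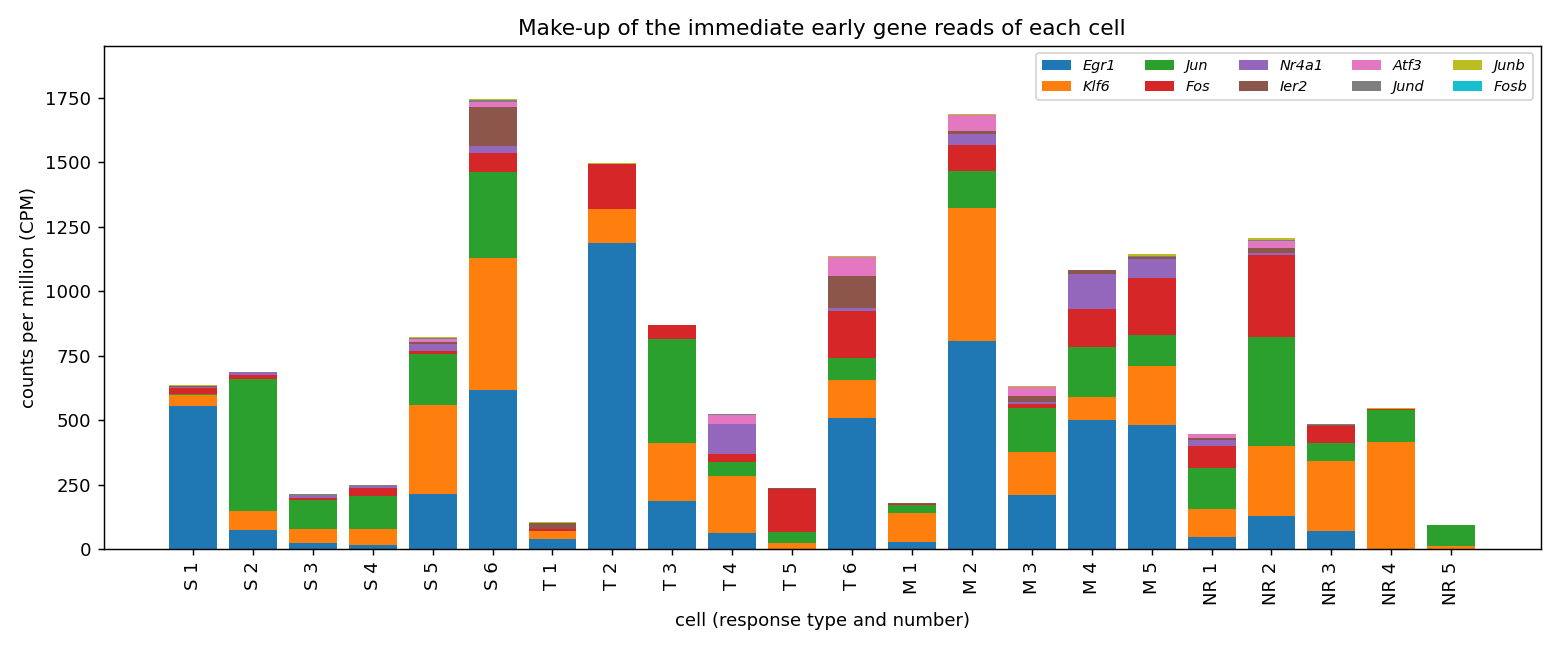
CPM of the 10 genes stacked for each cell, with cells on the x axis by response type and number and CPM on the y axis. The tallest bars are S-type cell 6 (1743 CPM), M-type cell 2 (1685 CPM) and T-type cell 2 (1495 CPM), and the shortest is NR cell 5 (94.1 CPM).

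*Fos* (GRCm38, chromosome 12, 85473890 to 85477273, plus strand) encodes the founding Fos subunit of AP-1 and was lowest in S-type cells. The S-type cells held 67.0 to 900 normalized counts with a median of 289, and the T-type cells 174.5 to 7873 with a median of 1471. The M-type cells 1 to 5 held 43.8, 1322, 169, 1525 and 2091, and the NR cells 1 to 5 held 1031, 3200, 728, 15.0 and 7.42. NR cells 4 and 5 thus had almost no *Fos*, 25 and 8 reads, while NR cell 2 had more than all other cells except T-type cell 2 by normalized counts and the most of all 22 cells in CPM (317), where T-type cell 2 (172.8) was also below M-type cell 5 (219) and T-type cell 6 (181.5). The NR level was 996, beside 332 for S-type, 2245 for T-type and 1030 for M-type cells. T-type exceeded S-type by a log2 ratio of 2.76, and the ratio stayed between 1.75 and 3.36 when each cell was left out in turn, with 3 of 6 T-type cells above the highest S-type cell. S-type against NR gave -1.59, between -2.19 and -0.43 with each cell left out, and the value nearest to 0 was that without NR cell 2. T-type against NR gave 1.17, which became 0.17 without T-type cell 2 and 0.12 on mean CPM.

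*Fosb* (chromosome 7, 19302696 to 19310051, minus strand), the close relative of *Fos*, was barely detectable. It had 31 reads in all, of which 13 were in NR cell 1 and at most 4 in each of the others. NR cells together had 18 of these reads, M-type cells 6, S-type cells 4 and T-type cells 3. The log2 ratio of the pooled reads of T-type to NR was -1.94 with a 95% interval of -4.34 to -0.16 from the exact binomial split of the reads, an interval that covers counting error and not the spread between cells. Cells without a read were found in every type.

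*Jun* (chromosome 4, 95049034 to 95052222, minus strand), a gene of 1 exon that encodes the founding Jun subunit, was high in most cells of every type. The S-type cells held 96.8 to 7917 normalized counts with a median of 1681, and the T-type cells 0 to 6453 with a median of 590. The M-type cells 1 to 5 held 404, 1941, 1750, 1967 and 1148, and the NR cells 1 to 5 held 1939, 4265, 754, 1410 and 1315. The NR and M-type cells were the more even, and 4 of 6 T-type cells lay below the lowest NR cell. T-type cell 2 had 0 reads of *Jun*, where 3 reads would have been 0.239 CPM, although it had 2171 reads of *Fos*. Beside an NR level of 1937, the levels were 2744 for S-type, 1441 for T-type and 1442 for M-type cells, and no contrast with NR reached 2-fold by mean level. T-type against S-type gave a log2 ratio of -0.93, between -2.65 and -0.25 with each cell left out, -1.63 by pooled reads and -1.14 on mean CPM. T-type against NR gave a log2 ratio of -0.43 by mean level, but -1.35 by pooled reads and -2.14 without T-type cell 3, which held 74.7% of the T-type level. S-type against NR was at 0.50, or 1.02 without NR cell 2 and -0.18 without S-type cell 2. The exons of *Jun* share 232 bases with the antisense gene *Junos*, and it was not stated whether reads were counted by strand, so reads of such pairs cannot be told apart.

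*Junb* (chromosome 8, 84974484 to 84978718, minus strand) and *Jund* (chromosome 8, 70698949 to 70700616, plus strand) encode the other Jun subunits, of which *Jund* is known as the more constitutive. Both were low. *Junb* had levels of 22.7 in NR, 18.9 for S-type, 29.5 for T-type and 22.99 for M-type cells, with 657 reads over all cells. T-type cell 2 alone held 69.6% of the T-type level, and the log2 ratio of T-type to NR was 0.38 with it, -1.08 without it and -1.12 on mean CPM. M-type cell 5 held 73.7% of the M-type level, and M-type against NR was at 0.02 with it and -1.58 without it. The order of the types for *Junb* was thus not settled. *Jund* had 665 reads, and its S-type cells ran from 17.3 to 89.1 normalized counts with a median of 32.4, against 0 to 45.6 with a median of 9.46 in T-type cells. Its M-type cells 1 to 5 held 5.00, 9.80, 7.03, 21.8 and 10.8, and its NR cells held 10.3, 64.7, 7.19, 23.9 and 1.85. All 6 S-type cells lay above the NR median of *Jund* and 1 above its highest NR cell, and 4 of 6 T-type cells lay below the lowest S-type cell. T-type against S-type gave a log2 ratio of -1.50 for *Jund*, between -2.30 and -1.12 with each cell left out and -1.84 on mean CPM. S-type against NR gave 0.94, between 0.56 and 1.93 with each cell left out, the highest without NR cell 2, and 1.63 by the median over cells. M-type against NR gave -0.99, or 0.01 without NR cell 2. *Jund* shares 877 exonic bases with the antisense gene *Gm11175*, and the exons of *Junb* overlap *Prdx2*, a peroxidase gene on the opposite strand.

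The balance between the AP-1 partners shifted from cell to cell. *Fos* with *Fosb* made up 98.5% of the reads of the 5 members that encode AP-1 subunits in T-type cell 2, 80.1% in T-type cell 5 and 0.558% in NR cell 5. In the S-type this share was 66.4% in cell 1, whose *Jun* count was the lowest of its type, and between 3.33% and 18.1% in the other 5 cells. In the M-type it ran from 8.75% to 62.7%. The Fos relatives *Fosl1* and *Fosl2*, which are no members, took between 0% and 83.6% of the reads of all 7 subunit genes in a cell. With them in the total, the share of *Fos* with *Fosb* was still 98.5% in T-type cell 2 and 79.99% in T-type cell 5, but fell from 63.9% to 25.4% in T-type cell 1, where *Fosl1* with *Fosl2* held 60.3%.

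*Egr1* (chromosome 18, 34859823 to 34864984, plus strand) encodes a zinc finger factor that is a standard reporter of ERK and calcium signaling, and by mean level it was the member with the largest log2 ratio to NR in each responding type. The NR cells 1 to 5 held 565, 1277, 750, 1.20 and 0.927 normalized counts. The S-type cells held 161.2 to 7922 with a median of 1639, and the T-type cells 1.94 to 54087 with a median of 1913. The M-type cells 1 to 5 held 342, 10731, 2145, 5129 and 4614. In 3 of 6 S-type, 3 of 6 T-type and 4 of 5 M-type cells the count was above that of the highest NR cell, and the same numbers held in CPM. The groups overlapped: S-type cells 3 and 4 and M-type cell 1 were below the NR median, and T-type cell 5 had 3 reads. NR cells 4 and 5 had 2 and 1 reads in libraries of 18835038 and 17676402 reads.

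The levels of *Egr1* were 519 in NR, 3170 for S-type, 10744 for T-type and 4592 for M-type cells. The S-type level was thus 6.11-fold, the T-type level 20.7-fold and the M-type level 8.85-fold that of NR. These 3 contrasts share the NR cells. The log2 ratio to NR was 2.61 for S-type, with a leave-one-out range of 2.10 to 3.27, and 3.15 for M-type, with a range of 2.56 to 3.80. For T-type it was 4.37 with a range of 2.00 to 5.03, the lowest value being that without T-type cell 2, which held 83.9% of the T-type level. Mean CPM gave 2.37, 3.06 and 2.77 for S-type, M-type and T-type, and the median over cells gave 1.54, 3.03 and 1.76. Its place ahead of *Nr4a1* depended on the measure, since *Nr4a1* was at 3.08 in M-type against NR on mean CPM, and by the median over cells at 6.32 in S-type and 8.43 in M-type. The *Nr4a1* values by the median over cells rest on an NR median of 1.44 normalized counts, from 2 reads in NR cell 3. Its lead also depended on single cells. Without T-type cell 2, T-type against NR gave 2.00 for *Egr1*, 2.65 for *Ier2* and 2.145 for *Nr4a1*. Without S-type cell 1, S-type against NR gave 2.10 for *Egr1* and 2.65 for *Ier2*. T-type and S-type had no settled order, since the log2 ratio between them was 1.76 with all cells and -0.61 without T-type cell 2.

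*Klf6* (chromosome 13, 5861482 to 5870394, plus strand), a zinc finger factor linked to injury and cell stress, had similar mean levels in the 4 types. Beside an NR level of 2379, the levels were 2067 for S-type, 2487 for T-type and 2622 for M-type cells, within 1.15-fold of NR in each type. The S-type cells held 523 to 6174 normalized counts with a median of 875, and the T-type cells 286 to 6031 with a median of 2164. The M-type cells 1 to 5 held 1481, 6875, 1678, 899 and 2177, and the NR cells 1314, 2741, 2951, 4680 and 211. By the median over cells S-type was below NR by a log2 ratio of -1.65, and T-type was at -0.74 both by pooled reads and on mean CPM. Leaving out a cell moved S-type against NR from -0.20 to -0.93 (without S-type cell 6) and M-type against NR from 0.14 to -0.61 (without M-type cell 2), so the similar levels hold for the mean normalized count with all cells in.

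*Nr4a1* (chromosome 15, 101254269 to 101274795, plus strand) encodes the nuclear receptor Nur77, a classic calcium-responsive gene, and it was either on or nearly off in a cell. All 6 S-type cells had it, with 46.2 to 315 normalized counts and a median of 131. T-type cells 1, 2 and 3 had none, and cells 4, 5 and 6 had 766, 3 and 242 reads, with 1397 normalized counts in cell 4. In M-type cells 1 to 5 they were 0, 563, 51.1, 1379 and 720, and in NR cells 1 to 5 they were 268, 81.7, 1.44, 0 and 0. The S-type was thus the even group and all 6 of its cells lay above the NR median, while 4 of 6 T-type cells lay below the lowest S-type cell. The NR level was 70.3, beside 163.5 for S-type, 259 for T-type and 543 for M-type cells. M-type against NR gave a log2 ratio of 2.95, between 2.25 and 4.71 with each cell left out, and 3 of 5 M-type cells were above the highest NR cell. S-type against NR gave 1.22, between 0.90 and 2.98. T-type against NR gave 1.88, but -1.16 without T-type cell 4, which held 89.9% of the T-type level.

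*Atf3* (chromosome 1, 191170296 to 191218039, minus strand) was high in a few cells of each type and low or absent in the rest. The S-type cells held 0 to 256 normalized counts with a median of 6.61, and the T-type cells 0 to 874 with a median of 0.704. The M-type cells 1 to 5 held 0, 850, 376, 0 and 0.432, and the NR cells 197, 244, 15.1, 5.38 and 0. In the T-type, cells 4 and 6 had 228 and 1364 reads and the other 4 cells had 1 or 0. Beside an NR level of 92.2, the levels were 60.2 for S-type, 215 for T-type and 245 for M-type cells. T-type against NR gave a log2 ratio of 1.22, which became -0.14 without T-type cell 6, and M-type against NR gave 1.41, which became 0.03 without M-type cell 2. By the median over cells T-type and M-type were below NR, at -3.91 and -4.69, because most of their cells had almost no reads.

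*Ier2* (chromosome 8, 84661331 to 84662852, minus strand), a gene of 1 exon, was read in every M-type cell but missing from some cells of the other types. The S-type cells held 0 to 1834 normalized counts with a median of 28.3, and the T-type cells 0 to 1405 with a median of 16.5. The M-type cells 1 to 5 held 45.0, 140, 245, 158 and 87.7, and the NR cells 68.6, 214, 23.7, 0 and 0. All 5 M-type cells were above the NR median, and 1 was above the highest NR cell. The NR level was 61.3, beside 328 for S-type, 321 for T-type and 135 for M-type cells. M-type against NR gave a log2 ratio of 1.14, between 0.81 and 2.55 with each cell left out. S-type against NR gave 2.42, but -1.20 without S-type cell 6, which held 93.2% of the S-type level, and T-type against NR gave 2.39, or 0.76 without T-type cell 6.

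A count of members past 2-fold has to be read against how often any gene of these cells was past 2-fold. In T-type against NR, 5 of the 10 members were at least 2-fold higher (*Egr1*, *Ier2*, *Nr4a1*, *Atf3* and *Fos*) against 28.6% of the 12719 genes tested, and 1 was at least 2-fold lower (*Fosb*) against 32.4%. In S-type against NR, 3 were higher (*Egr1*, *Ier2* and *Nr4a1*) against 25.1% of genes and 2 lower (*Fos* and *Fosb*) against 22.4%. In M-type against NR, 4 were higher (*Egr1*, *Nr4a1*, *Atf3* and *Ier2*) against 19.8% and 1 lower (*Fosb*) against 28.1%. In T-type against S-type, 3 were higher (*Fos*, *Atf3* and *Egr1*) against 26.0% and 1 lower (*Jund*) against 32.2%. With 10 members, 3 correspond to 30%, so the counts of higher members in S-type against NR and T-type against S-type were near the background. The lower count in S-type against NR was near it too. Higher counts in T-type and M-type against NR were above it, while lower counts in those contrasts and in T-type against S-type were below it. These are small counts that moved with the processing: by the median over cells T-type against NR had 2 higher and 3 lower.

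The cells of the types being compared overlapped for all 10 members in all 4 contrasts. Genes whose cells did not overlap made up 0.991% of the genes tested in T-type against NR, 0.409% in S-type against NR, 0.598% in M-type against NR and 0.771% in T-type against S-type. The median log2 ratio of the members was 0.78 in T-type against NR, beside -0.05 for all genes. It was 0.15 beside 0.03 in S-type against NR, 0.09 beside -0.20 in M-type against NR and 0.46 beside -0.07 in T-type against S-type. The T-type medians depended on T-type cell 2. Without it the median was 0.00 against NR and -0.29 against S-type, and on mean CPM, where the median of all genes was itself at -0.45 against NR, it was -0.31. Against S-type it was likewise -0.31 on mean CPM, beside -0.44 for all genes. By the median over cells it was -0.43 against NR and -0.94 against S-type, beside -0.50 and -0.88 for all genes. NR cell 2 had a like weight on the other side, since without it the medians against NR were 1.61 for T-type, 0.82 for S-type and 1.06 for M-type.

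**Figure D4:**
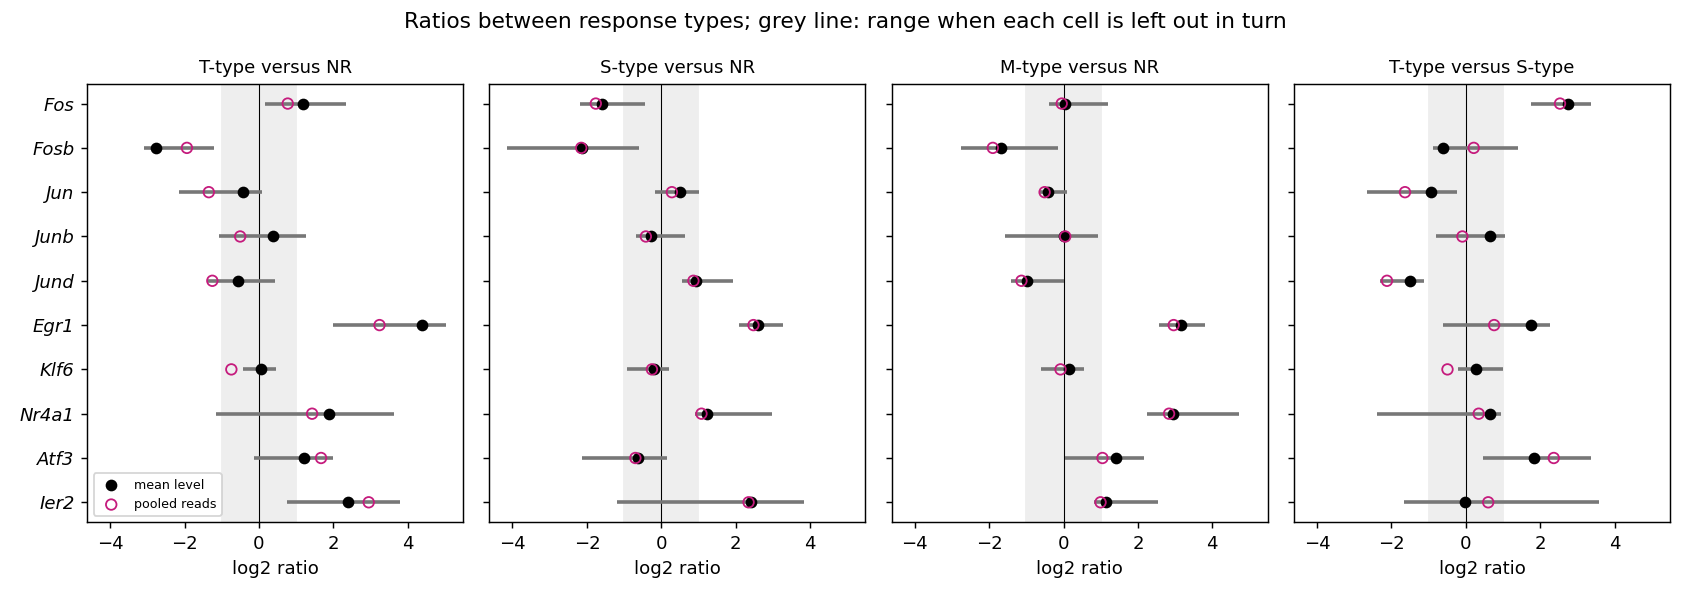
Log2 ratio of each member on the x axis for the 4 contrasts, with members on the y axis. Black points use the mean level of a type, open points the pooled reads, grey lines span the values with each cell left out in turn, and the shaded band marks less than 2-fold. *Egr1* lies past 2-fold above NR in all 3 types over the whole span. Every member has a span that crosses 0 in at least 1 contrast, *Egr1* in T-type against S-type (-0.61 to 2.27).

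Across the 22 cells the members went together weakly. The median Spearman rho of the 45 member pairs was 0.28, beside 0.05 over all pairs of the genes tested, and 41 of the 45 were above 0, or 91.1% beside 57.7% of all pairs. These correlations describe 22 cells that share size factors and library preparation. The highest were *Fos* with *Egr1* (0.55), *Fosb* with *Atf3* (0.53), *Atf3* with *Ier2* (0.52) and *Egr1* with *Klf6* (0.50). *Fos* and *Egr1* kept a rho between 0.49 and 0.65 when each type was left out in turn, although T-type cell 5 had 3262 reads of *Fos* and 3 of *Egr1*. Among the 10 pairs of AP-1 subunits the median rho was 0.20 and 8 were above 0. They ran from 0.37 for *Jun* with *Jund* and 0.31 for *Fosb* with *Junb* to 0.01 for *Fos* with *Jun*, -0.18 for *Fos* with *Jund* and -0.27 for *Jun* with *Junb*. The sum of the members had a rho of -0.08 with library size, while the mean of their log2 values, which gives the low members equal weight, had a rho of 0.66 with the number of genes read in a cell.

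**Figure D5:**
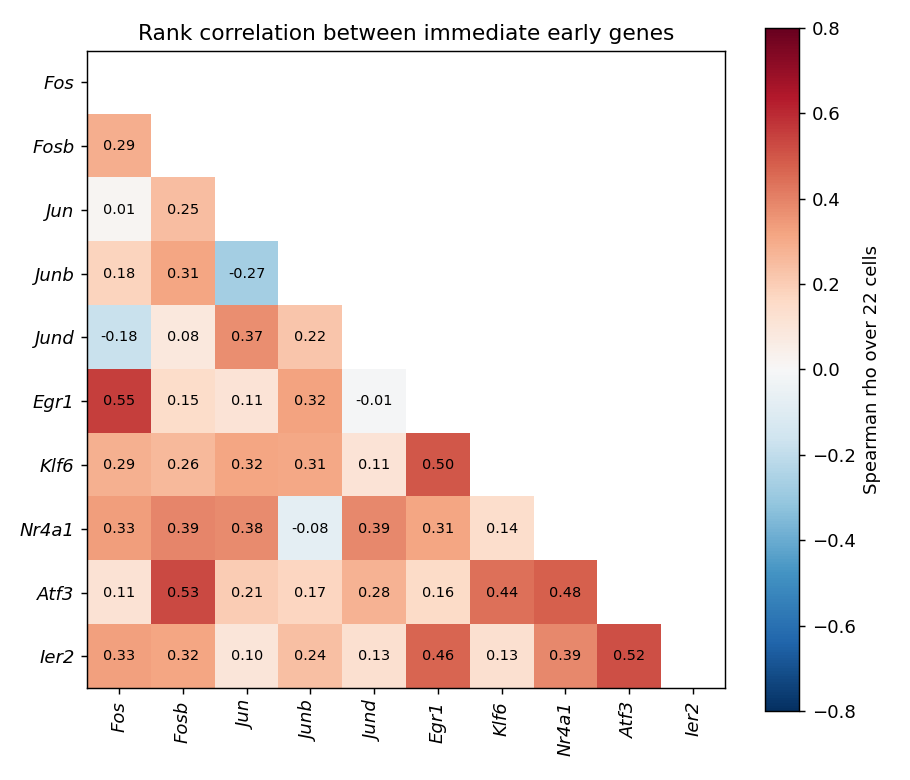
Spearman rho of normalized counts over the 22 cells for the 45 pairs of members, with the value printed in each square and the color scale from blue (negative) to red (positive). *Fos* with *Egr1* is the highest at 0.55 and *Jun* with *Junb* the lowest at -0.27.

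Among 8029 other genes read in at least 18 cells, those whose pattern over the cells was most like the mean rank of the members were *Rtf1* (rho 0.80), *Sgk1* (0.77), *Spice1* (0.76), *Hsd17b11* (0.73) and *Polr2i* (0.71), and 99% of these genes were at or below 0.56. *Sgk1* encodes a serum- and glucocorticoid-inducible kinase. Of single members, *Atf3* had the closest likeness, to *Uimc1* (0.87), followed by *Jun* to *Sppl2b* (0.82), *Nr4a1* to *Spice1* (0.81), *Junb* to *Iqcg* (0.77), *Fos* to *Gm13889* (0.76), *Jund* to *Gm16062* (0.75), *Ier2* to *Wwtr1* (0.74), *Egr1* to *Ostf1* (0.72) and *Klf6* to *Ccdc12* (0.71). Each is the highest of 8029 values over 22 cells.

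The wider immediate early response was described with 52 other such genes, of which 48 were tested. In T-type against NR 11 were at least 2-fold higher and 18 lower, in S-type against NR 9 and 11, in M-type against NR 11 and 8, and in T-type against S-type 8 and 16. As shares of the list, the higher counts were 22.9%, 18.8%, 22.9% and 16.7% in that order, beside 28.6%, 25.1%, 19.8% and 26.0% of all genes tested. The lower counts were 37.5%, 22.9%, 16.7% and 33.3%, beside 32.4%, 22.4%, 28.1% and 32.2% of all genes. The median log2 ratios of the list were -0.59, -0.25, -0.18 and -0.38, beside -0.05, 0.03, -0.20 and -0.07 for all genes. *Egr3* and *Egr4* had no read in any of the cells. The most abundant of these genes, *Ctgf*, *Mcl1*, *Cyr61*, *Dusp6* and *Sgk1*, differed by less than 2-fold in each contrast with all cells in, with levels of *Ctgf*, a matricellular growth factor, between 17625 and 25603. With a cell left out, *Mcl1* and *Cyr61* stayed under 2-fold, while *Sgk1* reached -1.46 in T-type against NR (without T-type cell 6) and -1.44 in S-type against NR (without S-type cell 5). The *Dusp6* ratio reached -1.37 in S-type against NR and 1.40 in T-type against S-type, both without S-type cell 1, and *Ctgf* -1.24 in M-type against NR (without M-type cell 3). *Zfp36l1*, an mRNA decay factor, was at 4530 in T-type and 2028 in NR cells, a log2 ratio of 1.16, or 0.31 without T-type cell 2. Its relative *Zfp36*, which targets cytokine mRNAs for decay, was at 10.5 in S-type and 61.6 in NR cells, with all S-type cells below all NR cells. That log2 ratio was -2.55, and between -2.96 and -2.22 with each cell left out. Its sign could not change there, since the cells did not overlap. Of the 48 genes tested, *Zfp36* was the 1 without overlap in S-type against NR, beside 0.409% of all genes, and it was named for that reason. Its T-type level was low as well, at 13.1, a log2 ratio of -2.23 to NR, though there the cells overlapped. In M-type cells the *Zfp36* level was above that of NR, at 100, a log2 ratio of 0.70.

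Of 29 upstream regulators (serum response factor, Elk, CREB, their cofactors and upstream kinases), 10 were at least 2-fold higher and 9 lower in T-type against NR, 7 and 6 in S-type against NR, 3 and 7 in M-type against NR, and 7 and 8 in T-type against S-type. In T-type against NR these are 34.5% and 31.0% of the list, beside 28.6% and 32.4% of all genes, and in M-type against NR 10.3% and 24.1%, beside 19.8% and 28.1%. The other contrasts held 24.1% and 20.7% (S-type against NR, beside 25.1% and 22.4%) and 24.1% and 27.6% (T-type against S-type, beside 26.0% and 32.2%). *Elk3*, a partner of serum response factor, had a log2 ratio of 1.41 in T-type against NR, between 1.11 and 1.81 with each cell left out, and of 1.36 in S-type against NR, or 0.79 without S-type cell 2. *Map2k1*, a kinase of the pathway that signals to Elk factors, was at a log2 ratio of 1.54 in T-type against NR, but at -0.34 without T-type cell 1, which held 77.4% of the T-type level.

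Of 8 AP-1 partner genes tested, 3 were higher and 3 lower in T-type against NR, 2 and 2 in both S-type and M-type against NR, and 1 and 3 in T-type against S-type. These are 37.5% and 37.5%, 25% and 25%, 25% and 25%, and 12.5% and 37.5% of the list in the order T-type, S-type and M-type against NR and T-type against S-type. The shares of all genes were 28.6% and 32.4%, 25.1% and 22.4%, 19.8% and 28.1%, and 26.0% and 32.2%. *Atf4* had a log2 ratio of 1.78 in T-type against NR, between 1.32 and 2.01 with each cell left out, *Atf2* one of 3.10, or 1.02 without T-type cell 1, and *Mafg* one of 0.16. Of 10 acute stress chaperones, 4 were higher and 2 lower both in T-type against NR and in T-type against S-type, 0 in S-type against NR, and 1 was lower in M-type against NR. The 40% higher and 20% lower in both T-type contrasts stand beside 28.6% and 32.4% of all genes against NR, and 26.0% and 32.2% against S-type. In S-type against NR 25.1% of all genes were higher and 22.4% lower, and in M-type against NR 28.1% were lower. The heat shock gene *Hsp90aa1* was at 55632 in T-type and 15245 in NR cells, a log2 ratio of 1.87, or 1.11 without T-type cell 2. *Hspa8* had a log2 ratio of 1.30, or 0.03 without that cell, and *Dnaja1* one of -0.07.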

How the data were processed

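RNA of 22 single astrocytes was amplified by the antisense RNA method in 2 rounds and sequenced from stranded libraries without molecular identifiers. The authors aligned the reads to GRCm38 with STAR and counted uniquely aligned exonic reads per gene with VERSE, and they deposited raw counts; the submitters' processing notes name STAR and HTSeq. Versions and the strand setting are not given in the sources used here. Libraries held 2937786 to 22131076 counts, and intervals cover counting error only.

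From the counts, median-of-ratios size factors were computed over 3670 genes read in every cell (NumPy 2.4.6, pandas 2.3.3, SciPy 1.17.1, Python 3.11.15). Where a type had no read of a gene, 3 reads were assumed for it. For the median over cells, a small constant set from 3 reads over the type was added to each median. Genes read in at least 5 cells (12719) were compared between types, and a fold of 2 was called. Cells are numbered in deposit order. Alternatives were CPM, TMM (edgeR 4.0.16, R 4.3.3), the median over cells, a pseudocount of 1, thinning and leaving out each cell. Named genes are all members, the most-read genes of each list, list genes with cells that do not overlap between types, and the genes most alike in pattern. Some list genes that this rule names are not reported here. Members and lists were chosen with earlier results of these data known. Scripts were tested on simulated data. Exon structures and coordinates are from GENCODE vM21 (GRCm38).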

Additional observations from a re-analysis of the deposited data

Results flagged for a closer look

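Of 44 groups of 5 or 6 cells, 40 were for the members by type and 4 for their sum by type. In 2 of the groups a cell stood apart from the others by Dixon's criterion at the 95% level on log2(normalized count + 1). Chance gives about 1 in 20 for normally distributed values, a rate that does not carry over to groups made mostly of 0. *Fosb* in T-type cell 6 had a normalized count of 1.92, from 3 reads, where the other 5 T-type cells had none. With all other values at 0, any cell with a read would have been flagged. *Junb* in S-type cell 2 had a normalized count of 0, where the nearest of the other S-type cells was at 9.75. The count depends on the scale: on the untransformed normalized counts 15 groups held such a cell, among them *Ier2* in S-type cell 6 (1834 against 76.9 in the nearest S-type cell) and *Egr1* in T-type cell 2 (54087 against 5801 in the nearest T-type cell), and *Junb* in S-type cell 2 was not among them.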

How the results depend on the processing

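Of 930 values recomputed under an alternative, 866 moved by less than the spread between cells (or, for counts, by at most 1.5 times). That spread is wide, so this does not mean a kept direction: of 768 log2 ratios recomputed, 91 changed sign, 81 of them ratios under 2-fold and 10 past it. The median of the members in T-type against NR went from 0.78 to -0.26 on pooled CPM, -0.31 on mean CPM and -0.43 by the median over cells. The median of all genes moved too, from -0.05 to -0.52, -0.45 and -0.50, and stayed below that of the members. With each cell left out in turn, the counts of members past 2-fold ran from 3 to 6 higher and 1 to 3 lower in T-type against NR, 1 to 5 higher and 1 to 4 lower in S-type against NR, 3 to 5 higher and 1 to 2 lower in M-type against NR, and 2 to 4 higher and 1 to 2 lower in T-type against S-type. By the median over cells, T-type against NR had 2 higher and 3 lower, S-type against NR 4 lower, M-type against NR 3 lower and T-type against S-type 5 lower. Lower counts were 4 on pooled CPM, 2 on mean CPM and 0 with thinning in T-type against NR. They were 2 on both CPM scales and 0 with the pseudocount in M-type against NR, and 2 on both CPM scales, with TMM and with thinning in T-type against S-type. Without the 2 cells of lowest size factor, an alternative chosen after seeing the data, they were 2 against NR and 2 against S-type.

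In T-type against NR, log2 ratios reversed by the median over cells to -0.35 for *Nr4a1*, -3.91 for *Atf3* and -0.51 for *Ier2*. *Atf3* by that median was at -4.69 in M-type against NR and -2.75 in T-type against S-type. With a cell left out the ranges were -1.16 to 3.64 for *Nr4a1* and -0.14 to 1.99 for *Atf3* in T-type against NR, -1.20 to 3.83 for *Ier2* in S-type against NR, and -0.61 to 2.27 for *Egr1* in T-type against S-type, which was -0.78 without both cells of lowest size factor. The cause was not tested. Depth limits *Fosb*, with 31 reads in all and, with thinning, none in T-type or NR cells, so that it has no ratio there, and no unexposed cell or known culture is in the design. No paired analysis was possible because the labels do not give the pup or culture of a cell, and no test between types was made.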
